A study of Mus musculus with 24 samples.

Results

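The 10 genes described here are Tie1, Clec10a, Ccl3, Pglyrp1, Tmem92, Arap2, Pdzd2, Mgll, Pemt and Arhgap8, out of 55487 genes counted in mouse embryonic stem cells that carry an inducible DUX transgene. They were picked from earlier results of the same libraries, because their reads are higher after DUX induction or because that response differs between cell lines. Their levels, with induction and without it, both enter that response and are therefore given as a description without a test, and tests are kept for other genes. All 10 genes passed the filter on low counts in both sets of libraries. The name they were grouped under, somatic and immune genes switched on by DUX, holds for only some of them, since Arap2, Pdzd2 and Arhgap8 were already expressed without induction.

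The cells were KH2 embryonic stem cells. Their DUX transgene sits behind a promoter that doxycycline (DOX) turns on, written TRE_DUX in the sample titles. DOX was given for 16 h. There were 24 libraries in 12 groups of 2. The first 8 libraries, called the plain set, hold WT and DUXBL-KO cells, without and with DOX. The other 16, called the pLV2 set after a tag in their titles, hold WT line 1, WT line 2, TRIM24-KO and TRIM33-KO cells, without and with DOX. All 24 share the transgene, and no label says whether a knockout line is 1 clone or how the 2 libraries of a group were obtained. The p-values then measure only the spread between these libraries, which may be technical. The cells were grown on gelatin or on mouse fibroblast feeders, without a record of which.

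Checks of the labels came first. In 8 pLV2 libraries the treatment tag goes against the title. Titles were followed here, and Dux (Duxf3 in the annotation) had 0 to 2 counts in the 12 libraries titled without DOX and 20 to 110 in the 12 titled with it. Trim33 had 16.9 to 21.4 CPM (counts scaled to the size of each library) in the 4 libraries labelled TRIM33-KO and 85.2 to 140 in the 8 WT pLV2 libraries. Transcripts of Duxbl1 were not lower in the libraries labelled for its knockout, and those of Trim24 lay between the 2 WT pLV2 lines. Duxbl1 with DOX had 11.1 and 4.97 CPM in those labelled DUXBL-KO and 8.34 and 3.23 in WT. Trim24 had 120 to 137 CPM in the 4 libraries labelled TRIM24-KO. That is above the 94.5 to 100 CPM of WT line 1 and below the 165 to 199 of WT line 2. The part of each gene that was deleted is not given in the sources used here, and every direction for those libraries rests on the label. The 19 pluripotency markers were all detected, with a summed level of 5712 to 8478 CPM over the 24 libraries. The 19 fibroblast markers summed to 44.6 to 80.7 CPM without DOX and 47.4 to 81.2 with it. The WT libraries with DOX stand apart from each other: MERVL-int, the internal part of the endogenous retrovirus that DUX is known to activate, had 23000 CPM in replicate 1 and 9902 in replicate 2.

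DUX is a double homeobox transcription factor that is normally made for a short time when the embryo first transcribes its own genome. Forced expression in embryonic stem cells is known to switch part of the culture to a state resembling the 2-cell embryo, with MERVL elements and genes such as Zscan4 and Zfp352 on. Of the genes described here, Tie1, Clec10a, Ccl3 and Pglyrp1 are known from other tissues. Tie1 is a receptor tyrosine kinase of blood and lymphatic endothelium that works beside Tek, the angiopoietin receptor. Clec10a is a galactose-binding lectin of macrophages and dendritic cells, Ccl3 a chemokine made by activated macrophages, and Pglyrp1 a peptidoglycan-binding protein of neutrophil granules. Mgll is the lipase that breaks down the endocannabinoid 2-arachidonoylglycerol, and Pemt methylates phosphatidylethanolamine to phosphatidylcholine. Arap2 and Arhgap8 switch off small GTPases, Pdzd2 is a large protein with several PDZ domains, and Tmem92 is a small membrane protein.

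Upstream sequence was at hand for 7 of the 10 genes, in 9 windows of the RefSeq promoter table (GRCm38.p6), since Mgll and Pemt have 2 starts each. The 4 printed here include windows with few and with many CpGs, from genes that differ in their level before DOX. Each is the 250 bases before the start, written 5′ to 3′ on the gene's strand, with CpG dinucleotides in capitals. They lie at chr11:83649379-83649628 on the minus strand for Ccl3, chr7:18884440-18884689 on the plus strand for Pglyrp1, chr5:62766178-62766427 on the minus strand for Arap2 and chr6:88724454-88724703 on the plus strand for the second start of Mgll.
Ccl3: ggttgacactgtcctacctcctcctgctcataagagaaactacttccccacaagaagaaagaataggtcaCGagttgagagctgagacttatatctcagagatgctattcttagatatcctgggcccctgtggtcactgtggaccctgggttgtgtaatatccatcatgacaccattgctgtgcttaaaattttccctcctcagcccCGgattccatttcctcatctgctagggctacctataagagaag
Pglyrp1: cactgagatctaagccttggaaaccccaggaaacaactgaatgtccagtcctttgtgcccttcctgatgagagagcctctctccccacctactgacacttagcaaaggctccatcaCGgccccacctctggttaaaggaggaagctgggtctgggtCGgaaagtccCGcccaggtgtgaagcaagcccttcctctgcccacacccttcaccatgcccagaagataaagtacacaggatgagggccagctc
Arap2: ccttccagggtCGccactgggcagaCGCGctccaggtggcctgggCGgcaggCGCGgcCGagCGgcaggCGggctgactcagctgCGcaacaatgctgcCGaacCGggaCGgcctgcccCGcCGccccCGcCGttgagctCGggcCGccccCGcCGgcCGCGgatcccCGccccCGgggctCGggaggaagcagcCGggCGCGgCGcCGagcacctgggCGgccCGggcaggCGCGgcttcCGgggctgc
Mgll: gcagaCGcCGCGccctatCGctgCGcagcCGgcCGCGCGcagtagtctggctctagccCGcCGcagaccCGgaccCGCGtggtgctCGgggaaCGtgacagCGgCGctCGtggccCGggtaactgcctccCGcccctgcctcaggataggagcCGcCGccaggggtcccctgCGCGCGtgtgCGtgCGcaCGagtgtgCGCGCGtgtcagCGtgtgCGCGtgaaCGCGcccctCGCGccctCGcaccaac

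The Ccl3 window holds 2 CpGs and the Pglyrp1 window 3, against a median of 6 over all 32851 windows in the table. The 2 windows of Pemt hold 1 and 2, and that of Tie1 holds 6. The Arap2 window holds 36 CpGs, more than 97.4% of all windows, and Pdzd2 holds 16. Those 2 genes were read at 2.78 CPM or more in every library without DOX. Mgll is CpG-rich as well, with 23 and 40 CpGs before its starts, yet it had 2 to 35 counts per library without DOX. The letters TGATT and AATCA with 1 base between, a pattern of the kind double homeodomain proteins are known to bind, were searched on both strands of the 300-base windows, which also take in 50 bases after the start. None of the 9 windows holds them, and 0.0335% of all windows do. With a pattern so rare, 9 windows without it cannot show whether DUX binds near these genes. The letters TATAAA, of the TATA box, were also in none of the 9 and in 13.6% of all windows. Each pattern was counted whether or not it overlapped the other. Counts per gene do not show which start the reads came from.

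Tie1, Clec10a, Ccl3 and Tmem92 were nearly silent without DOX and read in every library with it. Tie1 (ENSMUSG00000033191.14, chromosome 4, 118471191 to 118490061) had 1 to 22 counts per library without DOX. With DOX, its level in the plain set was 49.1 and 19.3 CPM for WT and 57.7 and 52.7 for DUXBL-KO. Levels in the pLV2 set were 47.7 and 58.8 CPM for line 1, 77.3 and 76.6 for line 2, 83.0 and 88.7 for TRIM24-KO, and 107 and 97.0 for TRIM33-KO. No library with DOX came near any library without it, and within the pLV2 set the libraries of neighbouring lines in this order did not overlap. The log2 fold change of Tie1 was 7.34 ± 0.65 (SE) for WT, 8.14 ± 0.63 for DUXBL-KO, 7.29 ± 0.21 for line 1 and 8.53 ± 0.19 for TRIM33-KO. It was 6.25 ± 0.16 in TRIM24-KO, the line with the most Tie1 reads before DOX. In line 2, where the 2 libraries without DOX held 2 counts in all, the ratio was 1421 with a 95% counting interval of 393 to 11745. Such intervals, and the floors used below, cover counting error only.

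Clec10a (ENSMUSG00000000318.16, chromosome 11, 70156197 to 70170834) had no reads in 10 of the 12 libraries without DOX, and 1 and 2 in the others. With DOX its level was 7.86 and 2.46 CPM for WT and 11.2 and 6.01 for DUXBL-KO, and these lines overlap. In the pLV2 set it was 4.49 and 6.05 CPM for line 1, 8.61 and 11.2 for TRIM24-KO, 17.9 and 16.3 for line 2, and 28.9 and 20.5 for TRIM33-KO. These 4 lines do not overlap, and the spread from line 1 to TRIM33-KO is wider than for Tie1. Against 0 counts without DOX, taken as 3 counts over the group, Clec10a was at least 49.3-fold higher in WT, 104-fold in DUXBL-KO, 211-fold in line 2 and 343-fold in TRIM33-KO. For line 1, with 2 counts before DOX, the ratio was 79.4 (95% counting interval 21.6 to 662), and for TRIM24-KO, with 1, it was 326 (57.9 to 12950). Its close relative Mgl2, which lies 18.65 kb away, had at most 1 count in any of the 24 libraries.

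Ccl3 (ENSMUSG00000000982.5, chromosome 11, 83647844 to 83649355) had 1 count in 2 of the libraries without DOX and 0 in the other 10. With DOX it had 5.94 and 1.48 CPM for WT and 2.23 and 2.02 for DUXBL-KO. The pLV2 libraries had 4.95 and 6.89 CPM for line 1, 6.03 and 5.44 for line 2, 5.55 and 9.02 for TRIM24-KO, and 7.64 and 9.97 for TRIM33-KO. Ccl3 had the lowest range of counts of the 4, with 27 to 99 per library, and each line of the pLV2 set overlaps the next. In line 1 alone Clec10a was lower, with 59 and 80 counts against 65 and 91 for Ccl3. Its fold was at least 35.3 in WT, 70.6 in line 2, 78.1 in TRIM24-KO and 119 in TRIM33-KO. Its neighbour Ccl4, a chemokine that the same immune cells make, had 1 count at most in any library.

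Tmem92 (ENSMUSG00000075610.9, chromosome 11, 94777217 to 94782703) had the highest level with DOX among the 10 genes per length of transcript. Its median over the 12 libraries was 114 CPM per kb, against 13.8 for Tie1 and 12.6 for Pglyrp1. Without DOX it had 0 to 10 counts per library. With DOX it had 260.0 and 89.0 CPM for WT, 198 and 107 for DUXBL-KO, 219 and 255 for line 1, 202 and 243 for TRIM24-KO, 456 and 374 for line 2, and 674 and 549 for TRIM33-KO. The libraries of line 1 and TRIM24-KO overlap, and those of line 2 and TRIM33-KO lie above them and apart. The log2 fold change was 9.82 ± 0.86 for DUXBL-KO, 9.07 ± 0.26 for line 1, 10.47 ± 0.30 for TRIM24-KO and 10.87 ± 0.26 for TRIM33-KO. In WT the ratio was 2500.0 (95% counting interval 692 to 20645), and in line 2 it was 5108 (1747 to 24774).

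**Figure D1:**
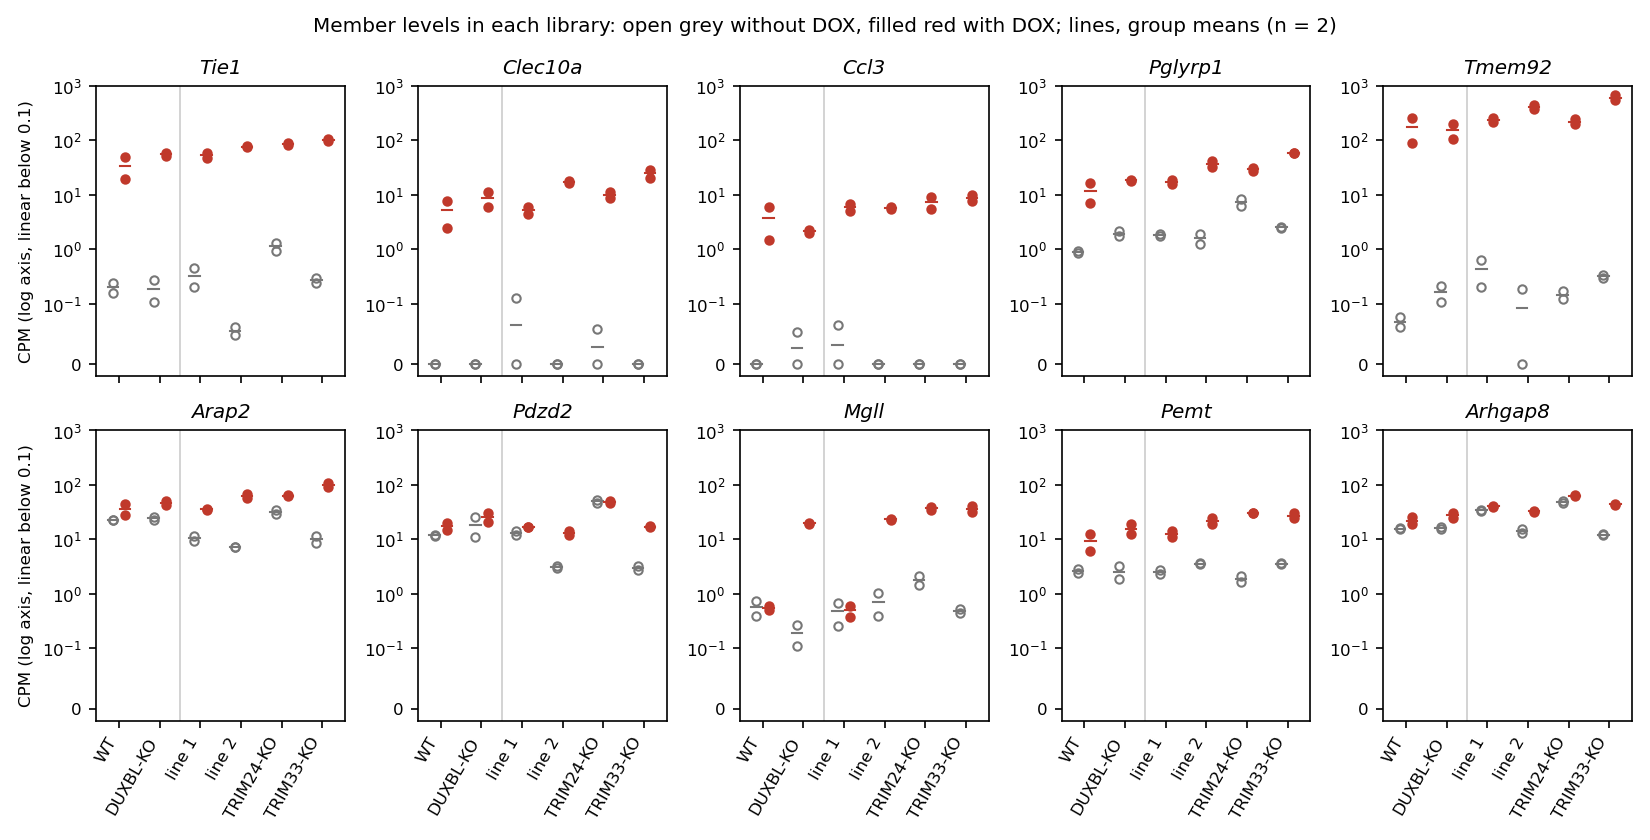
CPM of each gene in each library (log axis, linear below 0.1) by cell line, without DOX (open grey) and with DOX (filled red), with short lines for the means of 2 libraries; a vertical line separates the plain set (left) from the pLV2 set. Tie1, Clec10a, Ccl3 and Tmem92 go from near 0 to at least 1.48 CPM in every line, Mgll does so in 4 of the 6 lines, and Pdzd2 and Arhgap8 start at 2.78 CPM or more.

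Pglyrp1 and Pemt had a low level without DOX and a higher one with it in all 6 lines. Pglyrp1 (ENSMUSG00000030413.7, chromosome 7, 18871331 to 18890459) had 0.85 to 8.23 CPM without DOX. With DOX it had 16.5 and 7.0 CPM for WT, 19.1 and 18.0 for DUXBL-KO, 15.7 and 18.4 for line 1, 27.0 and 31.6 for TRIM24-KO, 42.5 and 31.8 for line 2, and 59.9 and 59.1 for TRIM33-KO. The 4 pLV2 lines did not overlap with DOX. The log2 fold change of Pglyrp1 ran from 2.00 ± 0.17 in TRIM24-KO to 4.58 ± 0.20 in line 2, with 4.56 ± 0.18 in TRIM33-KO and 3.71 ± 0.45 in WT. TRIM24-KO had both the smallest change and the highest level before DOX.

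Pemt (ENSMUSG00000000301.16, chromosome 11, 59970614 to 60046489) had 28 to 77 counts without DOX and 113 to 362 with it. Its level with DOX was 12.3 and 6.18 CPM for WT and 19.1 and 12.3 for DUXBL-KO. It was 11 and 14.1 CPM for line 1, 19.2 and 24.8 for line 2, 30.0 and 24.6 for TRIM33-KO, and 30.0 and 30.1 for TRIM24-KO. Line 1 lies below the others, while the top 3 lines overlap from one to the next. The log2 fold change of Pemt was largest in TRIM24-KO, at 4.01 ± 0.19, and smallest in WT, at 1.80 ± 0.43. The others were 2.63 ± 0.43 for DUXBL-KO, 2.31 ± 0.20 for line 1, 2.62 ± 0.17 for line 2 and 2.93 ± 0.17 for TRIM33-KO.

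Mgll had reads with DOX in some lines and stayed silent in others. Mgll (ENSMUSG00000033174.17, chromosome 6, 88724412 to 88828360) had 10 and 9 counts with DOX in WT, and 5 and 8 in line 1. Counts were 293 and 364 for DUXBL-KO, 301 and 321 for line 2, 466 and 278 for TRIM24-KO, and 461 and 295 for TRIM33-KO. The level in WT was 0.546 ± 0.0761 CPM with DOX (SD, n = 2) and 0.558 ± 0.241 without, and in line 1 it was 0.493 ± 0.159 and 0.472 ± 0.303. The libraries with and without DOX overlap in both of these lines, with log2 fold changes of -0.07 ± 0.42 and 0.08 ± 0.62. Elsewhere it was 6.65 ± 0.38 for DUXBL-KO, 5.09 ± 0.27 for line 2, 4.38 ± 0.23 for TRIM24-KO and 6.2 ± 0.27 for TRIM33-KO. Both WT pLV2 lines carry the same label apart from their number, yet with DOX the Mgll level of line 2 exceeded that of line 1 by 5.55 ± 0.31 on the log2 scale. The same libraries of WT and line 1 had Tie1, Clec10a, Ccl3 and Tmem92 reads.

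A short annotated transcript inside the Mgll span was silent and read in the same lines. Gm44001 (chromosome 6, 88802243 to 88806015) lies on the strand of Mgll and is annotated as needing experimental proof. It had 0 counts in all 4 libraries of WT and line 1 with DOX. Counts were 33 and 30 for DUXBL-KO, 22 and 38 for line 2, 19 and 12 for TRIM24-KO, and 45 and 23 for TRIM33-KO, against 0 to 2 in the 12 libraries without DOX. With DOX against without, the ratio for Gm44001 was 70.1 in DUXBL-KO (95% counting interval 12.1 to 2810), 52.7 in TRIM24-KO (8.78 to 2146) and 68.0 in TRIM33-KO (18.1 to 573), and line 2 was at least 27.9-fold higher. Whether a read in both spans was given to both genes is not stated in the sources used here, so the 2 counts may share reads, and those of Gm44001 are a description as well. The antisense gene Gm26588, which overlaps the start of Mgll, had 1 count at most in any library.

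**Figure D2:**
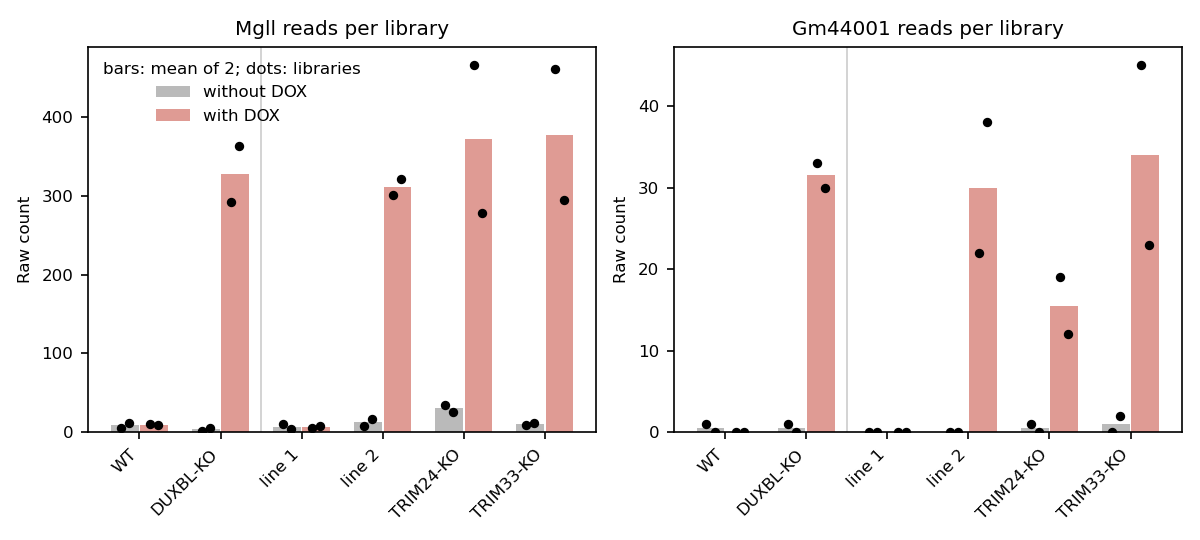
Raw counts of Mgll (left) and of Gm44001, a transcript inside its span (right), by cell line without DOX (grey) and with DOX (red); bars are means of 2 libraries and dots the libraries. With DOX, Mgll stayed at 5 to 10 counts in WT and line 1 and reached 278 to 466 in the other 4 lines, and Gm44001 had 0 against 12 to 45.

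Arap2, Pdzd2 and Arhgap8 were expressed before DOX, and their change with it differed from line to line. Arap2 (ENSMUSG00000037999.13, chromosome 5, 62602445 to 62766159) had 7.23 to 34.0 CPM without DOX and 28.5 to 108 with it. Its log2 fold change was 0.67 ± 0.21 for WT, 0.91 ± 0.20 for DUXBL-KO, 1.76 ± 0.15 for line 1, 3.11 ± 0.15 for line 2, 1.01 ± 0.13 for TRIM24-KO and 3.33 ± 0.14 for TRIM33-KO. The libraries with DOX lay above those without in all 6 lines. Line 2 and TRIM33-KO had the larger changes and, in the pLV2 set, TRIM24-KO the highest starting level, at 34.0 and 29.1 CPM.

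Pdzd2 (ENSMUSG00000022197.16, chromosome 15, 12359711 to 12739924) began higher in line 1 than in line 2 and TRIM33-KO, which overlap without DOX. Without DOX it had 14.2 and 12.2 CPM in line 1, 3.25 and 3.0 in line 2, and 2.78 and 3.27 in TRIM33-KO. With DOX these lines had 17.0 and 16.8, 14.1 and 12.2, and 17.0 and 17.2 CPM, so that line 2 lies below the others. TRIM24-KO had 53.5 and 47.2 CPM without DOX and 49.9 and 46.4 with it, so its libraries overlap, as do those of DUXBL-KO (11.1 and 25.7 against 20.6 and 30.8). The log2 fold change was 2.07 ± 0.14 in line 2 and 2.49 ± 0.14 in TRIM33-KO, against 0.36 ± 0.12 in line 1, -0.06 ± 0.10 in TRIM24-KO and 0.57 ± 0.39 in WT. F830212C03Rik, a transcript on the same strand inside the Pdzd2 span, had 0 to 2 counts without DOX and 3 to 23 with it. Its counts with DOX were 15 and 3 for WT, 4 and 6 for line 1, and 23 and 13 for line 2. Its reads may be shared with Pdzd2, as for Gm44001 and Mgll, and no test is given.

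Arhgap8 (ENSMUSG00000078954.9, chromosome 15, 84720052 to 84772207) was expressed in every library without DOX, at 11.9 to 51.1 CPM. Among the 6 lines its log2 fold change was 0.49 ± 0.18 for WT, 0.77 ± 0.18 for DUXBL-KO, 0.23 ± 0.09 for line 1, 1.20 ± 0.10 for line 2, 0.37 ± 0.09 for TRIM24-KO and 1.85 ± 0.10 for TRIM33-KO. Its libraries with DOX lay above those without in each line. The pLV2 levels with DOX were 61.7 and 64.6 CPM for TRIM24-KO, 44.2 and 43.6 for TRIM33-KO, 39.3 and 41.2 for line 1, and 32.7 and 32.4 for line 2, and none of these lines overlap.

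Counted over the 10 genes, both libraries with DOX lay above both without for 9 in WT, DUXBL-KO, line 1 and TRIM24-KO and for all 10 in line 2 and TRIM33-KO. The genes were chosen on these values, so nothing is read from the counts. Of all genes tested, 21.1% were so placed in WT, 23.1% in DUXBL-KO, 28.5% in line 1, 24.9% in line 2, 28% in TRIM24-KO and 28.2% in TRIM33-KO. The median log2 fold change over the 10 genes, with genes at 0 counts without DOX put at their bound, was 2.76 for WT, 4.61 for DUXBL-KO, 3.24 for WT pLV2, 4.19 for TRIM24-KO and 5.38 for TRIM33-KO. Without WT replicate 1 with DOX, the library with more MERVL-int, the WT value was 2.11. Over all genes tested the median lay between -0.09 and 0.

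Within the pLV2 set, the order of the lines for Clec10a, Pglyrp1, Tmem92 and Arap2 moves with the MERVL level. MERVL-int had 16217 and 19775 CPM for line 1, 23464 and 32470 for TRIM24-KO, 57014 and 44909 for line 2, and 89941 and 75361 for TRIM33-KO. Clec10a and Pglyrp1 have their means in this order. Tmem92 does but for line 1 and TRIM24-KO, and Arap2 but for line 2 and TRIM24-KO, pairs whose libraries overlap. The other 6 genes are in other orders. In the plain set MERVL-int had 37436 and 33661 CPM in DUXBL-KO, above both WT libraries, while Tmem92 overlapped between these lines, with a mean of 153 CPM in DUXBL-KO and 174 in WT. In bulk RNA a larger share of responding cells and more RNA per cell cannot be told apart. Between the 2 WT libraries with DOX, MERVL-int differed 2.32-fold. Tie1 differed 2.54-fold (95% counting interval 2.24 to 2.89), Pglyrp1 2.36-fold (1.90 to 2.93), Tmem92 2.92-fold (2.75 to 3.09), Clec10a 3.19-fold (2.26 to 4.59) and Ccl3 4.02-fold (2.61 to 6.40). Pemt differed 1.99-fold (1.57 to 2.53), Arap2, Pdzd2 and Arhgap8 by 1.54, 1.34 and 1.35-fold, and Mgll, with 10 and 9 counts, 1.22-fold (0.445 to 3.39). The part of the MERVL level in the differences between lines was not tested.

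Levels without DOX also differ from line to line for several of the 10 genes. They enter the response that chose the genes, so they too are a description. In TRIM24-KO, Pdzd2 had 814 and 891 counts against 49 to 207 in the 4 WT pLV2 libraries, a log2 difference of 2.97 ± 0.09 (SE) from both WT lines. For Tie1 the difference was 2.95 ± 0.40, though it had only 16 and 22 counts. It was 2.09 ± 0.19 for Pglyrp1, 1.85 ± 0.12 for Arap2, 1.64 ± 0.35 for Mgll and 1.15 ± 0.08 for Arhgap8. For each of these genes both TRIM24-KO libraries lay above all 4 WT pLV2 libraries. The share of all genes so placed is not given here. In this comparison 43.2% of all genes had an adjusted p under 0.05 by edgeR, in either direction, so nothing is read from the placing. Pemt had a difference of -0.69 ± 0.22. Tmem92 had 2 and 3 counts against 0 to 10, and Clec10a and Ccl3 were at 2 counts or fewer throughout.

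In TRIM33-KO without DOX, the difference from WT pLV2 was -1.08 ± 0.14 for Pdzd2 and -0.86 ± 0.09 for Arhgap8. Both values depend on the WT line: against line 2 alone the difference was -0.05 for Pdzd2 and -0.22 for Arhgap8. Line 2 against line 1 had a difference of -2.07 ± 0.14 for Pdzd2, -1.27 ± 0.10 for Arhgap8 and -0.52 ± 0.17 for Arap2. Tie1 had 1 and 1 counts in line 2 against 3 and 7, so that line 1 was 6.13-fold above line 2 with a 95% counting interval of 1.31 to 57.6. Mgll, the gene that these lines separate most with DOX, had 4 and 10 counts in line 1 and 8 and 17 in line 2 without it, a difference of 0.54 ± 0.54.

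Between DUXBL-KO and WT without DOX, Mgll had 2 and 5 counts in DUXBL-KO and 5 and 12 in WT (log2 difference -1.57 ± 0.50). Pglyrp1 went the other way, with 32 and 40 counts in DUXBL-KO and 12 and 14 in WT (1.11 ± 0.49). The plain set had a coefficient of variation of 17.6% against 8.73% in the pLV2 set.

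**Figure D3:**
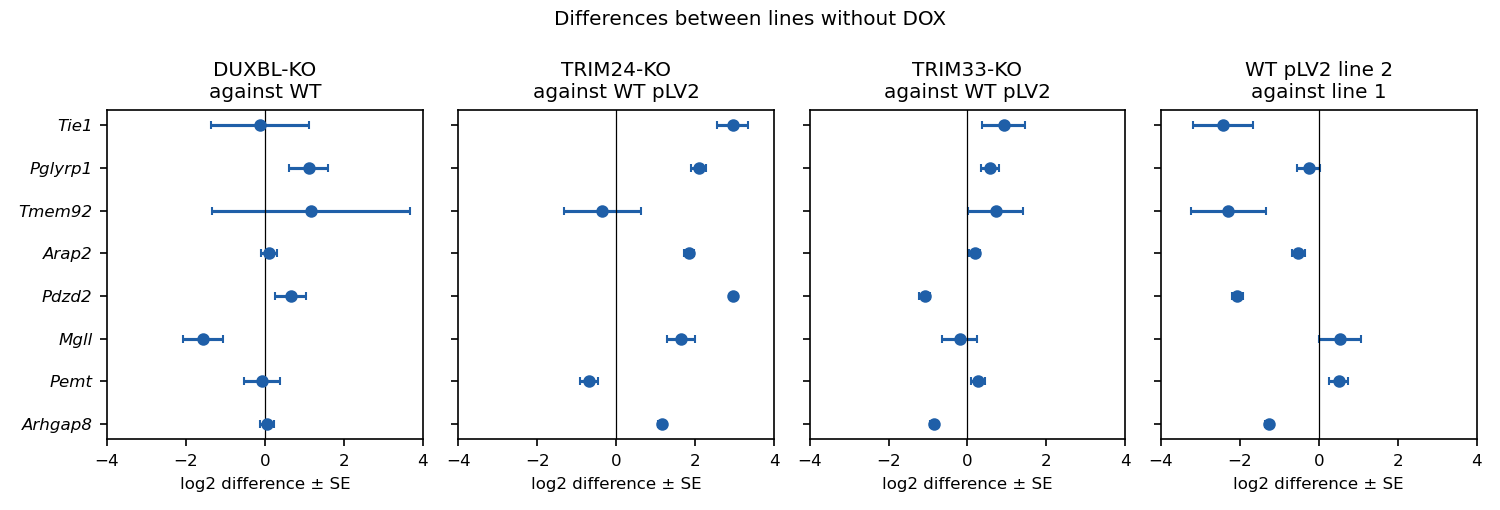
Log2 difference (± SE) between lines without DOX for the 8 genes above the floor of 3 counts, in 4 comparisons, from edgeR, as a description. For TRIM24-KO Pdzd2 lies at 2.97 and Pemt at -0.69, and Pdzd2 and Arhgap8 lie left of 0 in TRIM33-KO and in line 2.

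Among other genes of the same tissues and pathways, fewer were called higher with DOX than lower in WT pLV2 and TRIM33-KO. Over 8 lists written around the roles of the 10 genes, 234 entries in all, edgeR called 15 of 143 tested higher with DOX in WT pLV2 and 36 lower. That is 10.5% and 25.2%, against 15.5% and 18.5% of all genes. The balance over all genes turned with the scaling, from 2803 higher and 3342 lower to 3112 and 2740 with RLE factors and 2719 and 2100 with DESeq2, while the list genes were 19 and 33, and 16 and 31. The median log2 fold change over the lists was -0.13, and -0.05 over all genes. In TRIM24-KO 13 were higher and 14 lower, and in TRIM33-KO 15 and 41, with 11.4% and 4.88%, and 16.4% and 20% of all genes. In TRIM33-KO the 2961 higher and 3611 lower over all genes became 3480 and 2659 with RLE factors and 3045 and 1979 with DESeq2, and the list genes 19 and 38, and 17 and 30. In WT none of 138 was called in either direction, with 7 higher and 9 lower at an unadjusted p under 0.05 and 1 higher with DESeq2, where 2.86% of all genes were higher and 0.116% lower. In DUXBL-KO 0 were called higher and 2 lower, with 12 and 10 at an unadjusted p under 0.05 and 2 and 2 with DESeq2. Those 2, named after their values were seen, were the endothelial receptor Eng (-1.11 ± 0.21, adjusted p = 0.0243) and the GTPase-activating protein Srgap2 (-0.66 ± 0.12, 0.022). Neither was called with only the compared groups. In TRIM33-KO Eng was called higher instead (0.45 ± 0.12, adjusted p = 0.00951). In DUXBL-KO 4.52% of all genes were higher and 0.399% lower.

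Among 24 endothelial markers, 16 were tested in WT pLV2, where 1 rose and 3 fell (2 with RLE factors or DESeq2), beside 15.5% and 18.5% of all genes. The gene that rose was Flt4, a receptor for lymphatic growth factors of the VEGF family, at 29.4 CPM with DOX and 6.51 without (log2 fold change 2.19 ± 0.12, adjusted p = 1.48e-10). Flt4 also rose in TRIM24-KO (1.37 ± 0.16) and TRIM33-KO (2.28 ± 0.16), and had values of 1.68 ± 0.38 in WT (edgeR adjusted p = 0.0722) and 1.41 ± 0.37 in DUXBL-KO (0.0981). DESeq2 called it in both (3.89e-04 and 0.00511), and of 15 alternatives 6 called it in WT (2.54e-10 to 0.41) and 3 in DUXBL-KO (1.76e-07 to 0.33). Robo4, a guidance receptor of endothelium, fell by 0.68 on the log2 scale (± 0.16, adjusted p = 0.00283), and Pecam1, which embryonic stem cells also express, fell by 0.27 (± 0.09, 0.0214). The Robo4 call was lost with line 2 alone (adjusted p = 0.0625). The Pecam1 call held in 15 of 25 alternatives and was lost with line 1 alone (0.102) or line 2 alone (0.172), without line 1 replicate 1 or 2, each with or without DOX, without line 2 replicate 2 without DOX or replicate 1 with DOX, and without either TRIM33-KO library with DOX (adjusted p 0.0503 to 0.123 with 1 library left out). Tek, the partner receptor of Tie1, also fell in the main result, by 0.32 (± 0.12, 0.0443), and is named after its value was seen. The Tek call was lost with RLE factors and with DESeq2. The summed level of the 24 markers was 163 to 255 CPM without DOX and 151 to 243 with it. The defining genes Emcn and Lyve1 had no reads in any library, Fli1 had 1 at most, and Cdh5 had 0 to 19 counts without DOX and 0 to 11 with it.

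No marker of macrophages, dendritic cells or neutrophils was called higher beside Clec10a, Ccl3 and Pglyrp1 in WT pLV2. Of all genes 15.5% were called higher there and 18.5% lower. Few of these markers were tested, so nothing is read from that. Of 22 macrophage and dendritic markers 7 were tested, and edgeR called none in WT pLV2 in either direction, with 2 lower at an unadjusted p under 0.05 and none called by DESeq2. Adgre1, Lyz2, Clec7a, C1qb and C1qc were at 0 in all 24 libraries, Itgax had 1 count at most and Ptprc 4. Their summed level was 39.3 to 137 CPM without DOX and 37.4 to 136 with it. Of 23 neutrophil granule and peptidoglycan recognition genes 6 were tested, and in WT pLV2 neither edgeR nor DESeq2 called any or gave an unadjusted p under 0.05. In TRIM33-KO 2 of the 6 fell, beside 20% of all genes, and they are named after their values were seen. Mmp9, a granule protease, fell by 2.55 (± 0.62, adjusted p = 0.0043), and Nod1, a sensor of peptidoglycan fragments, fell by 1.10 (± 0.30, 0.00807). Pglyrp2, Pglyrp3 and Pglyrp4, the relatives of Pglyrp1, had 7 counts at most, and S100a8 had none. In TRIM33-KO, 1 macrophage and dendritic gene, Cd74, rose (log2 fold change 1.09 ± 0.31, adjusted p = 0.011), beside 16.4% of all genes.

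Of 49 chemokines and receptors, 32 had 3 counts or fewer in every library and 8 were tested. Cx3cl1, a membrane-bound chemokine, rose alone, from 2.61 to 6.80 CPM in WT pLV2 (log2 fold change 1.42 ± 0.17, adjusted p = 5.38e-06), beside 15.5% of all genes called higher and 18.5% lower. It also rose in TRIM24-KO (1.61 ± 0.26) and TRIM33-KO (1.92 ± 0.22). In WT (0.77 ± 0.19, edgeR adjusted p = 0.114) and DUXBL-KO (0.47 ± 0.19, 0.307) it was not called. Ccr1, a receptor for Ccl3, had no counts in any library.

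The lipid enzymes, tested in WT pLV2, stand beside 15.5% of all genes called higher and 18.5% lower. Of 18 endocannabinoid and acylglycerol enzymes, 16 were tested in WT pLV2, 3 rose and 1 fell. Abhd6, which hydrolyses the same lipid as Mgll, rose from 7.73 to 22.2 CPM (log2 fold change 1.56 ± 0.11, adjusted p = 8.01e-09). It also rose in TRIM24-KO (2.23 ± 0.16) and TRIM33-KO (2.87 ± 0.15), and had values of 0.83 ± 0.35 in WT and 1.48 ± 0.34 in DUXBL-KO (edgeR adjusted p = 0.447 and 0.0589). In DUXBL-KO it was called by DESeq2 (0.00132) and with only the compared groups (0.0228), by 6 of 15 alternatives in all (5.18e-08 to 0.308), and in WT by 1 of 15, with no filter on low counts (0.0144 to 0.971). The triglyceride synthases Dgat2 (0.90 ± 0.15) and Dgat1 (0.28 ± 0.08) rose, and Faah, which breaks down anandamide, fell by 0.64 (± 0.14). Of 20 genes of phosphatidylcholine and phosphatidylethanolamine synthesis, 4 of the 19 tested rose and 4 fell. The acyltransferases Lpcat4 (0.79 ± 0.07, adjusted p = 1.03e-07) and Lpcat3 (0.21 ± 0.06) and Mat2a, which makes the methyl donor that Pemt uses (0.25 ± 0.07), rose, as did Pcyt1a of the choline route (0.25 ± 0.08). Pcyt1b and Etnk2, also of the routes from choline and ethanolamine, fell by 0.38 and 0.62, and Etnk1 and Chkb by 0.30 and 0.35; Pcyt1a, Etnk1 and Chkb are named after their values were seen. Dgat1, Faah, Lpcat3 and Mat2a were not called in line 1 alone, where 9.96% of all genes were called higher and 6.12% lower, and Mat2a was not called in line 2 alone either (0.0616). The Dgat1 call was also lost without line 1 replicate 1 with DOX (adjusted p = 0.0591, 0.00407 to 0.252 over the alternatives). Those of Mat2a (0.0641, range 6.34e-05 to 0.133) and Lpcat3 (0.0557, range 0.00128 to 0.196) were lost without line 2 replicate 1 with DOX, and that of Lpcat3 without line 1 replicate 2 with DOX (0.0515).

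Of 62 other GTPase-activating proteins, relatives of Arap2 and Arhgap8, 57 were tested in WT pLV2. Of these 5 rose and 24 fell, beside 15.5% and 18.5% of all genes, with a median log2 fold change of -0.14. With RLE factors 7 rose and 22 fell, and with DESeq2 6 and 21; the difference from all genes was not tested. Dlc1 fell by 0.59 (± 0.06, adjusted p = 1.25e-06) and Asap2 by 0.52 (± 0.06, 7.60e-06). Stard13 (0.75 ± 0.21, adjusted p = 0.00911) and Adap2 (0.72 ± 0.20, 0.00977) rose, but neither was called in line 2 alone, where 12.7% of all genes were called higher and 13.8% lower. The Adap2 call was also lost without line 2 replicate 2 with DOX (adjusted p = 0.0874, range 5.00e-04 to 0.352). The other 3 that rose, named after their values were seen, were Arhgap31 (1.55 ± 0.20), Chn2 (0.84 ± 0.26) and Arhgap36, with 3 counts in all without DOX and 32 with it (ratio 13.5, 95% counting interval 4.23 to 69.1). Of 16 PDZ-domain relatives of Pdzd2, 14 were tested, Magi3 rose (0.29 ± 0.07, adjusted p = 0.00274) and 4 fell, among them Pdzd4 by 0.37 and, named after their values were seen, Tjp1 by 0.17 and Tjp3 by 0.46. For contrast, all 24 markers of the 2-cell-like state rose in WT pLV2, with a median log2 fold change of 10.02, or 9.97 with genes at 3 counts or fewer before DOX put at their bound or ratio. The list includes Duxf3, whose counts were used above to check the titles. That list and the others were written with earlier results known.

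**Figure D4:**
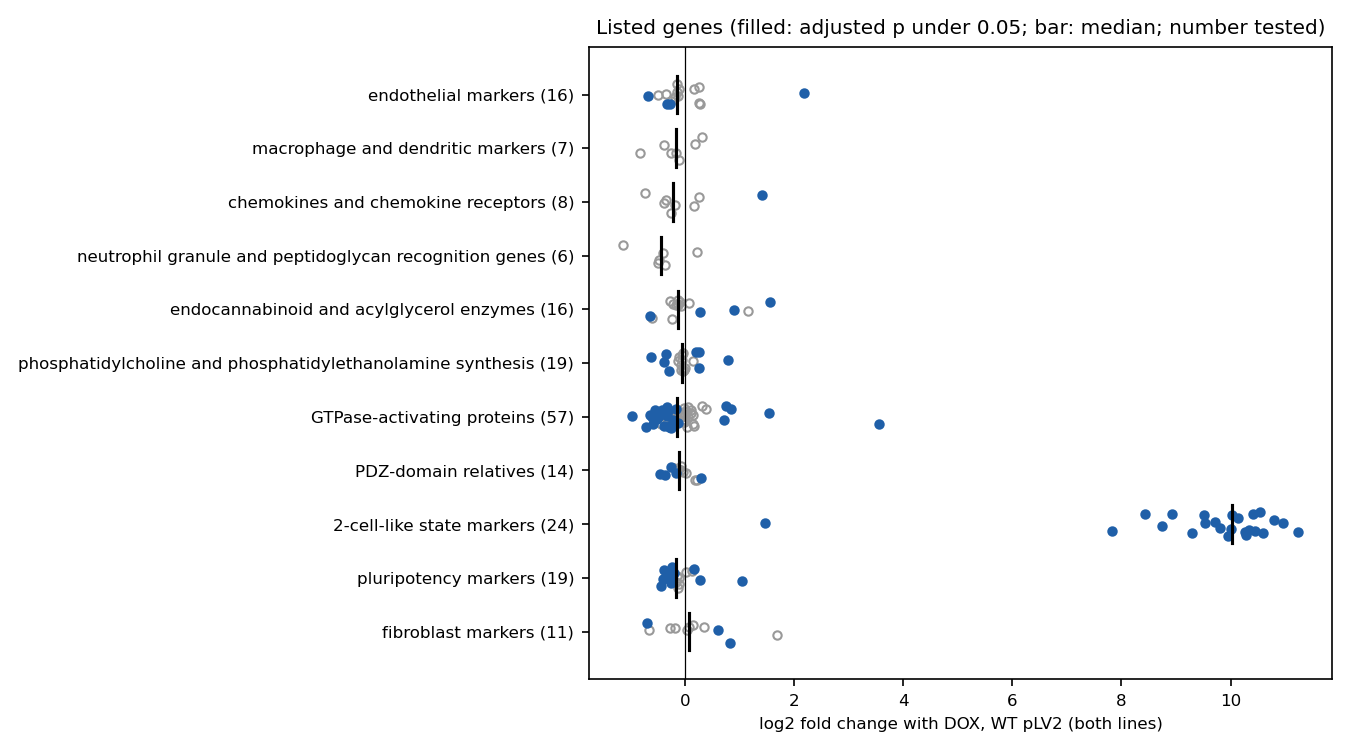
Log2 fold change with DOX in WT pLV2 for each tested gene of 11 lists, from edgeR; filled points have an adjusted p under 0.05, bars are list medians and numbers give genes tested. Medians of the first 8 lists lie between -0.44 and -0.05, single genes such as Flt4 at 2.19 lie apart, and the median of the 2-cell-like state list is 10.02.

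The genes beside the 10 on the chromosome were silent, not called, or called with small differences in WT pLV2. Of the 20 nearest protein-coding neighbours, 9 had at most 10 counts in every library, among them Mgl2 beside Clec10a, Ccl4 and Rpl9-ps1 beside Ccl3, Mill2 beside Pglyrp1, Cdc34b beside Tmem92, G6pd2 and Dthd1 beside Arap2, and Kbtbd12 beside Mgll. In WT and DUXBL-KO 10 neighbours were tested, and neither edgeR nor DESeq2 called any, with none at an unadjusted p under 0.05. In WT pLV2, 2 of the 11 tested rose and 3 fell, beside 15.5% and 18.5% of all genes. Golph3, 8.12 kb from Pdzd2, rose by 0.28 ± 0.05 on the log2 scale (adjusted p = 3.71e-04). Col1a1, 153.52 kb from Tmem92 and also a fibroblast marker, rose by 0.82 ± 0.21 (0.00686). Prr5, which lies before Arhgap8, fell by 0.49 (± 0.08, 2.69e-04). Ccdc61, 0.42 kb past Pglyrp1, fell by 0.32 (± 0.08, 0.00674), and Phf21b, past Arhgap8, fell by 0.41 (± 0.15, 0.0413). The Ccdc61 call was lost without line 1 replicate 2 or line 2 replicate 2 without DOX and in line 1 alone (adjusted p 0.00289 to 0.652). The Phf21b call held in only 6 of 25 alternatives (0.027 to 0.691). Col1a1 was called in neither line alone (1.44e-04 to 0.0701). In TRIM24-KO Col1a1 rose by 1.96 ± 0.36 (edgeR adjusted p = 7.47e-04). There 1 of the 11 tested neighbours rose and 1 fell, beside 11.4% and 4.88% of all genes. Rasd1, 5.67 kb from Pemt, rose in TRIM33-KO (1.51 ± 0.33, adjusted p = 0.0017), where 3 of the 11 neighbours rose and 3 fell, beside 16.4% and 20% of all genes. Its value in WT pLV2 was 0.61 ± 0.23 (0.0532), called in 11 of 25 alternatives (0.00641 to 0.393). The remaining tested neighbours, 2610528J11Rik, Slc16a11, 6030458C11Rik, Abtb1 and Rai1, were not called in WT pLV2.

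**Figure D5:**
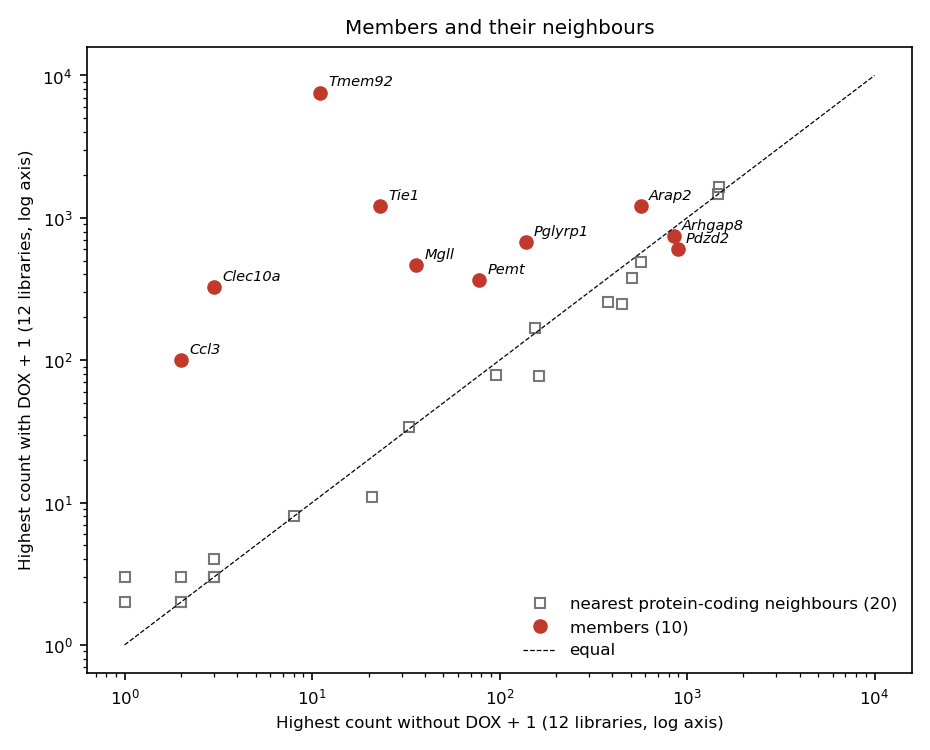
Highest count over 12 libraries with DOX against that over 12 without (log axes, 1 added), for the 10 genes (red) and their 20 nearest protein-coding neighbours (open squares); the broken line marks equal counts. Tmem92 reached 7585 counts with DOX from 10 at most without, while the neighbours lie near the line or near 0.

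Genes whose level was most like that of each of the 10 were sought over the 8 pLV2 libraries with DOX, by Pearson's r on the log2 scale among 11526 genes. The 8 libraries are 4 lines of 2, so r mostly describes how the lines differ, and no p is given. Clec10a was most like Tcstv3 (r = 0.996), Gm48492 (0.996) and AF067061 (0.996), which had 0 to 4 counts without DOX. Pglyrp1 was most like Chit1 (0.997), Dlgap2 (0.996) and Gm8038 (0.996), and Tmem92 most like Pramef6 (0.997), Gm5039 (0.994) and Rpl19 (0.993). Chit1, Dlgap2, Gm8038, Pramef6 and Gm5039 had at most 17 counts without DOX, whereas Rpl19 is a ribosomal protein gene with 5188 counts or more in every library. Tie1 was most like Fbxo34 (0.994), D13Ertd608e (0.991) and Gm20625 (0.99), and Arap2 most like Bex1 (0.998), Gm47184 (0.988) and Aqp9 (0.987).

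The leading likenesses of Mgll were with genes that vary between lines before DOX as well. Mgll was most like Epha1 (r = 0.995), Mirg (0.993) and Impdh1 (0.992). These were low in line 1 and not in line 2 with DOX, at 5.96 and 19.3 CPM for Epha1, 26.7 and 83.0 for Impdh1 and 0.189 and 18.2 for Mirg. Epha1 and Impdh1 lie on chromosome 6, as Mgll does. In plain WT, where Mgll also stayed at 0.546 CPM with DOX, Mirg had 33.9 CPM, Impdh1 62.8 and Epha1 12.6, and in DUXBL-KO, where Mgll was read, they had 34.4, 68.8 and 22.3. Pdzd2 was most like Cdkn1c (0.998), Kctd12 (0.995) and Spry2 (0.995), and Arhgap8 most like Dppa2 (0.99), H2afy (0.989) and Abhd14b (0.989). Pemt was most like Ugt8a (0.987), Tdpoz4 (0.979) and H2-K1 (0.97). Ccl3, with the fewest reads, had the lowest values, with Desi1 (0.951), Sfr1 (0.94) and 1190002N15Rik (0.939).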

How the data were processed

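Stranded, rRNA-depleted RNA libraries were read as 75-base pairs, per the labels' protocols. Reads were aligned to mm10 with STAR 2.7.6a after cutadapt 1.18 and bcl2fastq 2.20.0, per the submitters' processing notes; the counting tool is not given in the sources used here. The deposited values are raw read counts per gene and per repeat subfamily, with 11784696 to 19136869 gene counts per library. Of 55487 gene IDs, 54435 matched GENCODE M21 with their version and 792 without.

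The plain set (8 libraries) and the pLV2 set (16) were fitted apart with edgeR 4.0.16 (R 4.3.3), genes and 1146 repeat subfamilies together, with 1 coefficient per group, TMM factors from gene counts, filterByExpr and the quasi-likelihood test, which was tested on simulated data. P-values were adjusted over all genes (Benjamini-Hochberg, threshold 0.05). A base group at 0 counts was taken as 3, and one with 1 to 3 counts gives a ratio with an exact interval. Alternatives were DESeq2 1.42.0, RLE factors, no filter or a mean of 10 counts, leaving out the abundant row CT010467.1, the replicate block, only the compared groups, each WT line alone and each library left out. The genes and lists were chosen with earlier results of these data known. Differences between lines without DOX were planned as a test of the 10 genes, but are given as a description, since these levels enter the response that chose them. Named genes are all 10, each nearest neighbour, the 3 most correlated genes and, per list, up to 3 called higher and 2 called lower in WT pLV2 with the smallest p among those with a mean of 50 counts. A few genes that this rule names are not reported here.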

Additional observations from a re-analysis of the deposited data

Results flagged for a closer look

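The response to DOX differed between lines, by a test of the difference itself in edgeR, for 4 genes that are not among the 10. All 4 come from the genes named from the lists, so this is not a total over all genes. Abhd6, which shares its substrate with Mgll, rose more in WT line 2 than in line 1 by 1.73 ± 0.22 on the log2 scale (adjusted p = 0.00399, 2.18e-12 to 0.0281 over 23 alternatives, all of which called it). Against WT pLV2, taken over both lines, Abhd6 rose more in TRIM33-KO by 1.31 ± 0.19 (0.00391), but this depends on the WT line: the difference was 2.18 ± 0.22 from line 1 alone (1.10e-04) and 0.45 ± 0.23 from line 2 alone (1). That call was also lost without TRIM33-KO replicate 2 without DOX (0.0502).

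For Dlc1, a GTPase-activating protein, the change with DOX in TRIM33-KO differed from that in WT pLV2 by -0.50 ± 0.11 (adjusted p = 0.0489). The call held in 9 of 25 alternatives (4.63e-06 to 1), and against line 2 alone the difference was -0.30 ± 0.12 (1). Usp17le, a deubiquitinase gene read in the 2-cell-like state, rose more in line 2 than in line 1 by 3.75 ± 0.64 (adjusted p = 0.0201). This held in 18 of 23 alternatives (1.11e-15 to 0.136) and was lost without line 1 replicate 1 or 2 without DOX, line 1 replicate 1 with DOX, or line 2 replicate 1 or 2 without DOX. Dppa2, of the pluripotency list, rose more in TRIM24-KO than in WT pLV2 by 0.64 ± 0.10 (adjusted p = 0.00728). This held in 21 of 25 alternatives (8.81e-06 to 0.0735) and was lost against line 2 alone (0.54 ± 0.11, 0.0555), without line 1 replicate 2 without DOX, without TRIM24-KO replicate 1 without DOX and without TRIM24-KO replicate 2 with DOX.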

How the results depend on the processing

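Of the results that answer a comparison, 539 recomputed values kept their direction and size class and 54 moved. Of those for single genes, 1585 kept their direction and class, 51 lost a call, 12 gained one and 2 uncalled ones changed sign, and 78 differences of the 10 genes without DOX, given with no test, moved by more than the spread between libraries. The cause of these changes was not tested. The median effect of DOX over the 10 genes was 4.79 in DUXBL-KO with DESeq2 (4.61 in the main result), and in WT pLV2 it was 2.75 with line 1 alone and 4.83 with line 2 alone (3.24). Leaving out 1 library moved it from 2.11 to 3.21 in WT, from 3.56 to 4.68 in DUXBL-KO, from 3.12 to 3.55 in WT pLV2, from 3.95 to 4.43 in TRIM24-KO and from 5.2 to 5.53 in TRIM33-KO. The number of the 10 genes past the threshold without DOX is no test, since the genes were chosen with these values. It was 0 for TRIM33-KO against line 2 alone (2 against both lines), and with 1 library left out it ran from 0 to 0 in DUXBL-KO, 6 to 7 in TRIM24-KO, 2 to 3 in TRIM33-KO and 2 to 4 between the WT lines, where 0.0388%, 43.2%, 23.6% and 38.1% of all genes were past it in the main result. List genes called higher in WT were 3 with no filter, 1 with DESeq2 and 2 with the replicate block, and those called lower were 1 with no filter and 2 with the replicate block (0 and 0 in the main result). In DUXBL-KO 3 were higher with no filter, 2 with DESeq2, 5 with the replicate block and 1 with only the compared groups, and 5, 5 and 0 were lower with no filter, the replicate block and only the compared groups (0 and 2). In WT pLV2, 19 were lower with line 1 alone (36). In TRIM24-KO with only the compared groups 8 were higher and 7 lower (13 and 14). With 1 library left out, list genes higher and lower were 0 to 1 and 0 to 0 in WT, 0 to 1 and 0 to 2 in DUXBL-KO, 13 to 21 and 27 to 38 in WT pLV2, 6 to 14 and 7 to 20 in TRIM24-KO, and 11 to 19 and 25 to 42 in TRIM33-KO. Of the neighbours in WT pLV2, 1 was higher with either line alone and 1 lower with line 1 alone (2 and 3), and in TRIM24-KO 0 were lower with DESeq2 or only the compared groups (1). With 1 library left out, 2 to 3 neighbours were higher and 1 to 3 lower in WT pLV2, 1 to 1 and 0 to 1 in TRIM24-KO, and 2 to 3 and 0 to 4 in TRIM33-KO.

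Some values near 0 or at low counts changed sign. Against line 2 alone Tmem92 in TRIM24-KO was 0.8, and against line 1 alone in TRIM33-KO Tie1 was -0.3, Tmem92 -0.43, Arap2 -0.07 and Mgll 0.07. Slc16a11 with DOX was -0.86 with line 2 alone. With 1 library left out, the differences without DOX in DUXBL-KO ran from -0.86 to 0.37 for Tie1, -0.06 to 1.12 for Pdzd2, -0.51 to 0.28 for Pemt and -0.02 to 0.14 for Arhgap8. They ran from -0.86 to 1.38 for Tmem92 in TRIM24-KO, and in TRIM33-KO from -0.03 to 0.40 for Arap2 and -0.49 to 0.23 for Mgll. Between the WT lines they ran from -0.53 to 0.06 for Pglyrp1 and -0.23 to 1.40 for Mgll, and Slc16a11 with DOX from -0.00 to 0.47. Only 2 replicate numbers are shared by any groups compared, and same-numbered libraries deviated together with r of 0.29 to 0.64 over 6 group pairs of the plain set and -0.06 to 0.25 over 28 of the pLV2 set. The labels do not say that a number marks a shared batch. Over all genes, DUXBL-KO against WT without DOX had 0 called higher and 7 lower, against 117 and 285 with the replicate block, 212 and 333 with no filter and 53 and 124 with DESeq2. Differences between lines without DOX were not detectable at this depth for Clec10a and Ccl3, which had 2 counts or fewer.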
